A study of Homo sapiens with 4 samples.

Results

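The PTHLH locus was examined as a stretch of 370 kb on chromosome 12 (hg19, chr12:27950000-28320000) in FOXA2 ChIP-seq of PC3 cells. PTHLH itself lies at 28.11 to 28.12 Mb. A peak belonged to the locus when its summit fell in that stretch, which gave 8 of 21308 vehicle peaks and 5 of 14846 GSK2879552 peaks, at 9 distinct sites. The stretch was chosen on the peak values of these same lists, since it surrounds 1 of their strongest shared summits. The strength of that summit is therefore a description, not a finding. No gene annotation of the hg19 build was used, so a summit is placed relative to PTHLH by the gene's position to 0.01 Mb alone. RefSeq gives PTHLH a span of 14650 bp in GRCh38, longer than the 10 kb between those rounded ends, and distances to the gene can thus be off by several kb.

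PC3 cells come from a bone metastasis of prostate cancer and grow without androgen. Cells of both groups were kept in RPMI1640 with 5% charcoal-stripped serum; 1 group was given vehicle and the other 50 µM GSK2879552 for 4 hours. The labels repeat the GSK2879552 treatment text on the vehicle samples, whose group was taken from the agent they name, so how long vehicle was given is not said. Each group comprised 2 samples that the labels describe as technical replicates and that are lanes by title, and both lanes of a group share 1 peak list. The comparison asks whether FOXA2 occupancy near PTHLH differs when LSD1 is inhibited, and with 1 list per group it compares 2 libraries, with no measure of spread between cultures and no test.

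PTHLH encodes parathyroid hormone-related protein, a secreted factor that signals through the receptor PTH1R, which it shares with parathyroid hormone. It acts locally in cartilage, breast and smooth muscle. Released by tumours it raises blood calcium, and in bone metastases of breast and prostate cancer it is known to promote bone resorption. FOXA2 is a forkhead transcription factor that can bind compact chromatin and is best known from endoderm-derived organs. LSD1 (KDM1A), the target of GSK2879552, removes methyl groups from lysine 4 of histone H3.

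In RefSeq (GRCh38.p14) PTHLH lies on the minus strand of chromosome 12, so its start faces the higher coordinates. Its nearest protein-coding neighbours there are KLHL42 on the lower side and CCDC91 on the higher side. The 250 bases before the gene's start in RefSeq are printed so that the search for the forkhead motif can be read against them. Neither list placed a peak over the rounded gene interval, but these bases may lie outside it. Whether a peak covers them was not determined.

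PTHLH promoter: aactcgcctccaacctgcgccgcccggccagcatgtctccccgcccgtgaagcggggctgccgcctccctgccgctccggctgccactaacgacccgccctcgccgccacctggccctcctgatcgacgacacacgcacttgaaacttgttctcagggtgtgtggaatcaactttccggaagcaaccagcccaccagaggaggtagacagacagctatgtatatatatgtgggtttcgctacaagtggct

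The forkhead motif TGTTTAC had 0 matches on either strand of these 250 bases, and 2.98% of 35116 promoters of the same length held it. The shorter TGTTT, which lies inside the first motif, also had 0 matches, and 40.4% of promoters held it. These letters are 61.6% G or C. The motif search describes this window alone and says nothing about the peaks, whose sequences were not used here.

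Within the 370 kb, vehicle peaks lay on both sides of PTHLH and GSK2879552 peaks on 1 side. The difference rests on 2 weak vehicle peaks, of 11 and 16 fragments. About 10.9 kb beyond the lower end, a site with 25 GSK2879552 fragments was called in both lists. Of the 8 vehicle summits, 2 lay below the gene's interval, 0 within it and 6 above it, on the side of the gene's start. Of the 5 GSK2879552 summits, 0 lay below the interval, 0 within it and 5 above it. The interval of no peak in either list touched 28.11 to 28.12 Mb. Neighbouring summits stood a median of 40.0 kb apart in vehicle, from 1.82 to 88.2 kb, and a median of 24.2 kb apart in GSK2879552, from 1.81 to 107.2 kb. From the last GSK2879552 summit before the locus to the first within it, 187.4 kb held no peak, against 32.5 kb in vehicle. Gaps at least this long made up 28.7% of 14656 gaps between neighbouring GSK2879552 summits.

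**Figure D1:**
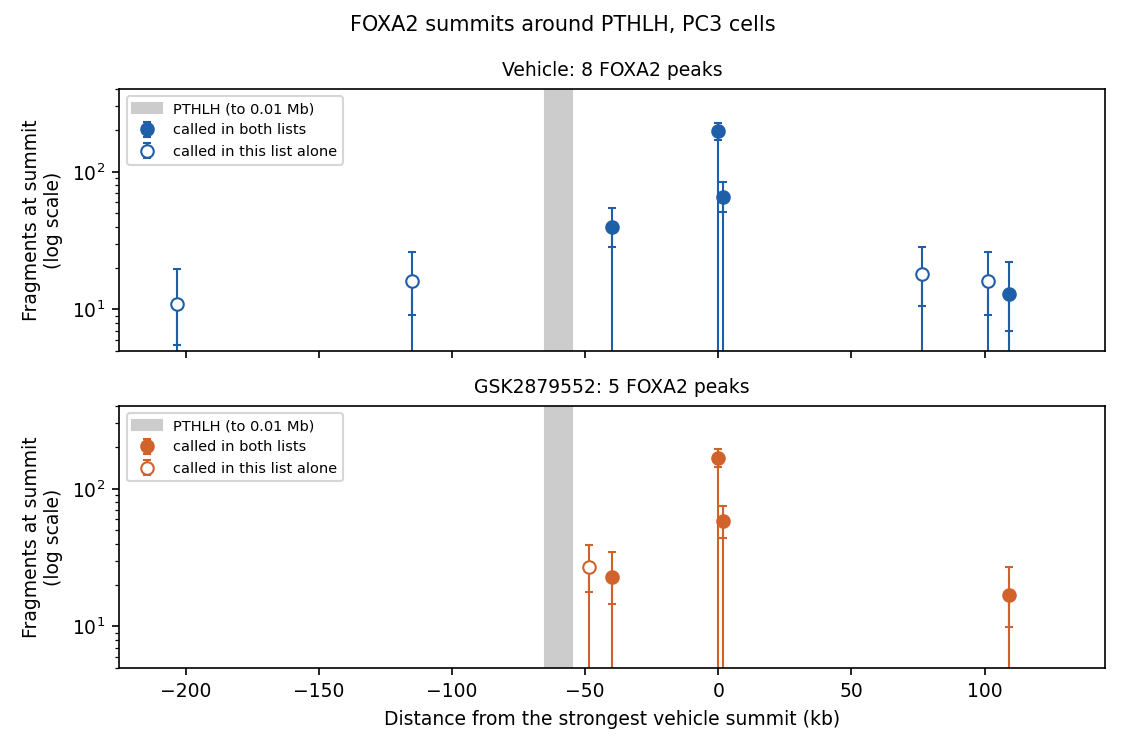
Fragments at each FOXA2 summit (log scale) against distance in kb from the strongest vehicle summit, for vehicle (upper panel) and GSK2879552 (lower panel); filled points were called in both lists, open points in 1 list, bars are exact 95% Poisson intervals and the grey band is PTHLH to 0.01 Mb. The strongest summit stands at 198 vehicle and 168 GSK2879552 fragments, while the remaining sites lie between 11 and 66.

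The locus was dominated by a single site about 55 kb above PTHLH. At chr12:28174653-28175105 the summit was covered by 198 sequenced fragments in vehicle (exact 95% Poisson interval 171 to 228) and by 168 in GSK2879552 (144 to 195), where the peak was chr12:28174671-28175118. All fragment intervals cover counting error only. By −log10 p, the authors' value for each peak, it ranked 6 among vehicle peaks and 8 among GSK2879552 peaks; by fragments, which are also numerous at summits of high background, it ranked 31 and 60. By −log10 p it was the first of 1081 vehicle and of 777 GSK2879552 peaks on chromosome 12. It held 52.4% of the fragments at the 8 vehicle summits and 57.3% at the 5 GSK2879552 summits. The number of fragments was lower in GSK2879552, at a ratio scaled for depth of 0.847, with an interval of 0.685 to 1.05 that includes 1. Its width was nearly the same, 453 bp in vehicle and 448 bp in GSK2879552, and the summits were 18 bp apart.

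A second site lay 1.82 kb further from the gene. The peak at chr12:28176550-28176841 had 66 fragments in vehicle (51.0 to 84.0) and 58 in GSK2879552 (44.0 to 74.98). The ratio was 0.877 (0.605 to 1.27), so a difference was not detectable at this depth. The summits were 9 bp apart, and the width was 292 bp in vehicle and 272 bp in GSK2879552. This pair of neighbouring sites was thus called in both lists with the same order of strength.

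The third site called in both lists was the nearest to PTHLH among them, about 15 kb above the gene's interval. At chr12:28134784-28135134 there were 40 fragments in vehicle (28.6 to 54.5) and 23 in GSK2879552 (14.6 to 34.5). The ratio of 0.574 had an interval of 0.328 to 0.982, the 1 interval among the locus's 4 that lay below 1; it covers counting error in 2 libraries and was not adjusted for the 4 sites looked at. The peak measured 351 bp in vehicle and 168 bp in GSK2879552, the shortest width in that list, which 9.09% of its peaks had.

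The farthest site called in both lists went the other way. At chr12:28283803-28284003, about 164 kb above PTHLH, 13 fragments were found in vehicle (6.92 to 22.2) and 17 in GSK2879552. The ratio of 1.31 had an interval of 0.597 to 2.92, so the direction is not settled at this depth. The summits were 64 bp apart, the largest distance among the 4 pairs.

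The 4 vehicle sites with no overlapping GSK2879552 peak had 11 to 18 fragments, at or under the median of 18 over all vehicle peaks. The 2 below PTHLH were chr12:27971478-27971692 with 11 fragments and chr12:28059639-28059872 with 16. They lay about 138 kb and 50 kb from the gene's interval, and the nearest GSK2879552 summits were 32.5 and 66.7 kb away. The other 2, above the gene, were chr12:28251258-28251571 with 18 fragments and chr12:28276100-28276283 with 16, at about 131 kb and 156 kb. Their nearest GSK2879552 summits were 32.5 and 7.7 kb away. With the local background these sites had in vehicle, a summit would have needed 9 or 10 fragments to reach the lowest −log10 p of the GSK2879552 list, 4.49. A site missing from that list can therefore still hold fragments up to about that number, or more where the enriched stretch was too short to be called.

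Vehicle sites of such strength were often missing from the GSK2879552 list. Sites of like strength were taken as peaks elsewhere within 10% of a site's fragments and with a local background under 25. Of 3177 vehicle peaks like the 11-fragment site, 76.8% had no overlapping GSK2879552 peak. The share was 51.2% of 3511 for sites like the 2 with 16 fragments and 41.9% of 2790 for those like the site with 18. The 13-fragment site, which was called in both lists, had a like share of 68.0% of 4104. Peaks like the sites of 40 and 66 fragments were alone in 1.10% of 1271 and 0.27% of 370. With the local background also within 25% of the site's, the shares were 79.2% of 432 for the 11-fragment site, 58.7% of 1289 and 57.0% of 1509 for those of 16, and 41.7% of 1404 for that of 18. They were 75.5% of 829 for the site of 13 fragments, 5.88% of 102 for that of 40 and 0% of 7 for that of 66. The 3 strongest vehicle sites of the locus and 1 of its 5 weaker ones were called in both lists.

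The GSK2879552 list held 1 peak in the locus with no vehicle counterpart, and it was the peak nearest to PTHLH. The peak at chr12:28126330-28126538 had 27 fragments (17.8 to 39.3) and a summit about 6 kb above the rounded end of the gene, so whether it lies beside the gene's start or inside the gene was not determined. The nearest vehicle summit was 8.5 kb away. It is the site of 40 vehicle fragments already described. Among 1252 GSK2879552 peaks of like strength elsewhere, 1.04% had no overlapping vehicle peak. Among the 75 of these that also had a local background within 25% of this site's, the share was 6.67%. Of all 1602 peaks found in the GSK2879552 list alone, 37 had 27 fragments or more, and 21 of those had a local background under 25; the median was 12. By −log10 p, 352 of the 1602 (21.97%) were as high or higher. The local background here was 5.78 fragments, at which a vehicle summit would have needed 17 fragments to reach the lowest −log10 p of the vehicle list, 4.01. The lists thus do not show that FOXA2 was absent from this position in vehicle cells.

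Counted over the locus, fewer peaks were called in GSK2879552. The 5 and 8 peaks gave a ratio of 0.625 with an exact interval of 0.161 to 2.17, against 0.697 (0.682 to 0.712) over both whole lists. Of the 8 vehicle peaks 4 had no overlapping GSK2879552 peak, 50.0% (Clopper-Pearson 95% interval 15.7 to 84.3), against 38.0% of all vehicle peaks. Of the 5 GSK2879552 peaks 1 had no overlapping vehicle peak, 20.0% (0.505 to 71.6), against 10.8% of all GSK2879552 peaks. Both intervals include the share of the whole list, and with so few peaks the locus cannot be told apart from it.

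Over the 4 sites called in both lists, the vehicle summits held 317 fragments (283 to 354) and the GSK2879552 summits 266 (235.0 to 299.96). The ratio of these sums was 0.837 (0.709 to 0.989), against 0.798 over all 13200 such pairs. Fragments were lower in GSK2879552 at 3 of the 4, against 78.0% of all pairs, and at least 1.5-fold lower at 1 of the 4, against 24.9% of all pairs. The median log2 ratio was -0.21 over the 4 and -0.32 over all pairs. The range within the locus ran from -0.80 to 0.38. The shares at the locus are near those of all pairs and show nothing particular to it. All 4 peaks were narrower in GSK2879552, as were 9905 of the 13200 pairs. The shortest peak also differed, 175 bp in vehicle and 168 bp in GSK2879552, and widths were not corrected for this. At the strongest site the widths differed by less than these lengths did.

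The log2 ratios of the locus were also set beside those of other strong sites. Within 10% of the fragments of the strongest site there were 3 pairs elsewhere with a local background under 25, with a median log2 ratio of -0.39. As these are few, the site was also set beside a broader group. Among the 100 strongest pairs outside the locus under the same limit, with 86 to 308 vehicle fragments, the median log2 ratio was -0.43 (interquartile range -0.60 to -0.30). The strongest PTHLH site was at -0.24, and 13 of the 100 had a ratio as high or higher. The second site, with 66 fragments, was at -0.19, and 369 like pairs had a median of -0.44 (-0.62 to -0.25). The site of 40 fragments was at -0.80, against -0.46 (-0.69 to -0.24) over 1257 like pairs, of which 14.5% were as low or lower. The site of 13 fragments was at 0.38, against -0.003 (-0.23 to 0.19) over 1309 like pairs, of which 10.4% were as high or higher. A pair needs a peak in both lists, and only 32.0% of the 4104 vehicle peaks like this site had one in GSK2879552. Weak sites with low ratios were thus often left out of that comparison. The interval of the strongest site on the same scale, -0.55 to 0.06, includes the median of the 100, and so does that of the second site, -0.72 to 0.34, for its like pairs.

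**Figure D2:**
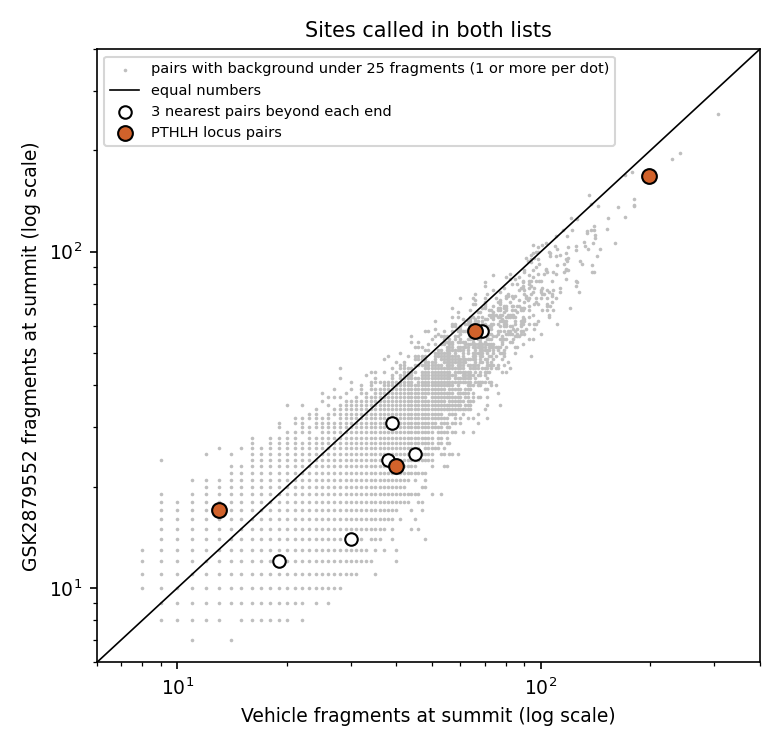
GSK2879552 against vehicle fragments at the summit for sites called in both lists (both axes log scale); grey dots are pairs with a local background under 25 fragments, orange points the 4 PTHLH locus pairs and open points the 3 nearest pairs beyond each end of the locus. The strongest (198 and 168) and second (66 and 58) PTHLH sites lie just under the line of equal numbers, the third (40 and 23) lies farther below it, and the fourth (13 and 17) lies above it.

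The local background at each summit also gives the number of reads in the 10 kb around it, provided the authors' peak caller made that background from the immunoprecipitated library itself; no source used here states this. At 100% of the 18881 vehicle and 13432 GSK2879552 summits above the genome-wide floor, these reads were at least as many as the summit's fragments. That condition requires this, but the check left out summits at the floor. Backgrounds made otherwise could also pass it, so the condition stays an assumption. The floor corresponded to 61.7 reads per 10 kb in vehicle and 64.4 in GSK2879552. All 8 vehicle and 5 GSK2879552 summits of the locus were above it, with 108 to 635 reads in vehicle and from 146 to 624 in GSK2879552. Over all vehicle summits the median was 96.0 (interquartile range 74.0 to 133). Copy number and mappability were not measured, and their part in the read density was not tested.

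Read density was highest around the strongest and second sites, whose 10 kb stretches mostly coincide. The 10 kb of the strongest site held 631 reads in vehicle and 606 in GSK2879552, and those of the second held 635 and 624. Over the whole vehicle list, 1.47% of summits had 631 or more. At the strongest site, 433 of the reads in vehicle and 438 in GSK2879552 did not cover the summit. The second site had 569 and 566 reads beyond its own summit. The site 15 kb above PTHLH had 294 and 338, and the far site had 114 and 129. The numbers for the 2 lists were within 5 reads of each other at the first pair of sites, and higher in GSK2879552 at the other pair.

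Scaled for the number of reads per kb, the ratio of reads beyond the summit was 0.969 (0.847 to 1.11) at the strongest site and 0.953 (0.847 to 1.07) at the second. At the site 15 kb above PTHLH it was 1.10 (0.939 to 1.29), where the summit's own ratio was 0.574. At the far site it was 1.08 (0.836 to 1.41). All 4 intervals include 1, but those of the strongest and second sites rest mostly on the same reads. The surroundings of either site also count the fragments of the other's peak. At every site, reads beyond the summit can include reads of the site's own peak that miss the summit. Over 11701 pairs above the floor in both lists the median ratio of reads beyond the summit was 1.01. At the site 15 kb above PTHLH the summit's interval lay below 1 while that of the reads around it included 1; the difference between these ratios was not tested. The GSK2879552-alone peak lies 8.5 kb from it and had 344 reads in its own 10 kb, of which 317 were beyond its summit.

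**Figure D3:**
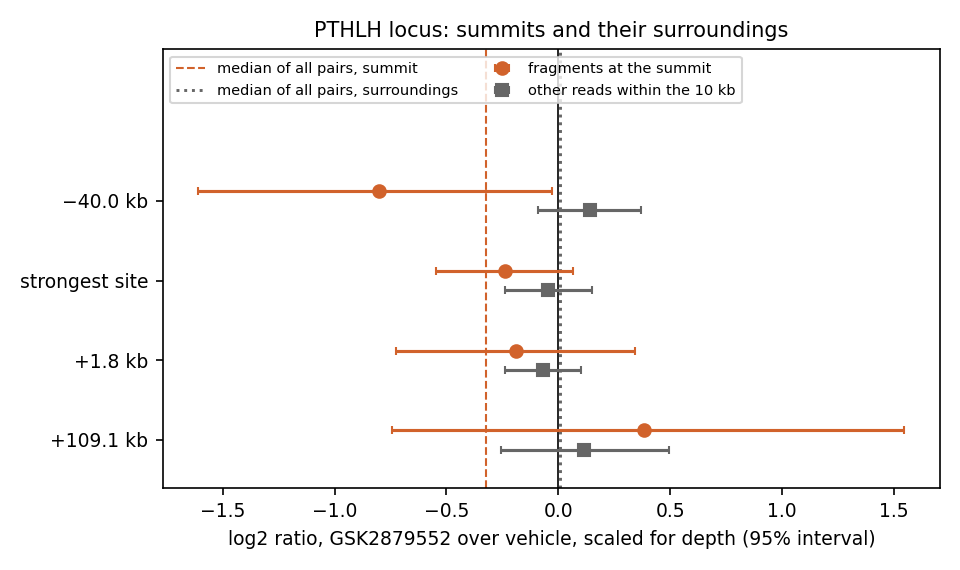
Log2 ratio of GSK2879552 over vehicle, scaled for depth, with exact 95% intervals (counting error only), for fragments at the summit (circles) and for the other reads within the 10 kb (squares) at the 4 PTHLH locus pairs, named by distance from the strongest site; dashed and dotted lines are the medians of all pairs. The summit ratio at the site 40.0 kb from the strongest is -0.80 with an interval below 0, and all other intervals cross 0. The 10 kb stretches of the strongest site and of the site 1.8 kb from it mostly coincide.

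The nearest pairs beyond either end of the 370 kb showed the same direction as most pairs. The first site beyond the lower end, chr12:27938927-27939215, was covered by 45 vehicle and 25 GSK2879552 fragments, a ratio of 0.554 (0.326 to 0.924). Next to it, at chr12:27934097-27934278, there were 19 and 12, and at chr12:27900454-27900787 there were 38 and 24. The first site beyond the upper end, chr12:28445696-28446075, lay 125.8 kb outside and had 39 and 31, a ratio of 0.793 (0.479 to 1.30). It was followed by chr12:28481979-28482265 with 30 and 14, a ratio of 0.466 (0.228 to 0.906), and by chr12:28541794-28542153 with 69 and 58. These lay 162.1 and 222.0 kb outside. All 6 sites had fewer fragments in GSK2879552, as did 78.0% of all pairs. The last sites inside were the 11-fragment vehicle-alone site at the lower end and the pair of 13 and 17 fragments at the upper end.

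The number of peaks at PTHLH was set beside that in other stretches of 370 kb as a description, since a stretch chosen for a strong shared summit had to hold peaks in both lists. Of 8362 such windows tiled along chromosomes 1 to 22, X and Y, 491 (5.87%) held 8 or more vehicle peaks and 853 (10.2%) held 5 or more GSK2879552 peaks; the medians were 2 and 1, and 2432 windows held no vehicle peak. With both lists held to a −log10 q of at least 10, 18.2% and 18.9% of windows held as many peaks as the locus. In the 179 windows with exactly 8 vehicle peaks, the median number of GSK2879552 peaks was 5 (interquartile range 4 to 7). The 5 at PTHLH are the same as that median.

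Around 3 other very strong sites, peaks were more numerous. Windows of the same length were centred on the 3 strongest shared sites elsewhere, by vehicle −log10 p, that had a local background under 25 and lay at least 370 kb from a stronger centre. Their ranks in that order were 1, 2 and 4, as the site between the last 2, with 230 vehicle fragments, lies in the first window. The window around chr10:33444863-33445489 (308 fragments in vehicle) held 24 vehicle and 15 GSK2879552 peaks. That around chr10:76635608-76636074 (242 fragments) held 20 and 17, and that around chr8:126442300-126442669 (180 fragments) held 12 and 9. In those 3 windows the strongest site made up 16.8%, 18.2% and 34.2% of the fragments at all vehicle summits, against 52.4% at PTHLH. This share also depends on how many peaks a window holds, and the PTHLH stretch was not centred on its strongest site. The share was not computed for a wider set of strong sites. Their next strongest vehicle sites had 230, 180 and 69 fragments, against 66 at PTHLH. Vehicle sites without a GSK2879552 peak numbered 9, 3 and 3, and none of the 3 windows held a peak in GSK2879552 alone (0 in each, against 1 at PTHLH). Their ratios of summed fragments were 0.752 (0.697 to 0.811), 0.785 (0.722 to 0.854) and 0.763 (0.663 to 0.876), all within the interval of 0.709 to 0.989 at PTHLH.

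Over a wider set, the strongest PTHLH site did not stand apart by its number of neighbours. Within 185 kb on either side it had 6 other vehicle summits, and the 100 strongest vehicle sites with a local background under 25 had a median of 8 (interquartile range 4.75 to 13). Of these 100, 42 had 6 or fewer. In GSK2879552 it had 4 neighbours, and the 100 strongest had a median of 7 (3 to 10).

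**Figure D4:**
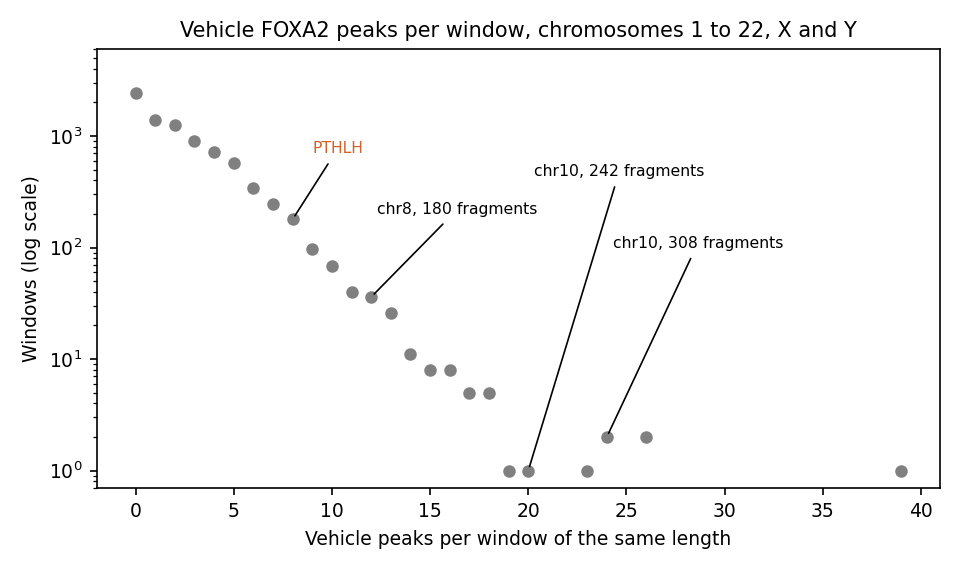
Number of 370 kb windows (log scale) against the number of vehicle peaks they hold, over chromosomes 1 to 22, X and Y; the PTHLH locus and the windows around 3 other strong sites, named by chromosome and fragments, are marked at their number of peaks. PTHLH, at 8 peaks, lies below the other 3, at 12, 20 and 24.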

How the data were processed

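FOXA2 ChIP-seq of PC3 cells was analysed from 2 peak lists, 1 per group. The sample descriptions say ATAC-seq; the titles and the series say FOXA2 ChIP-seq, which was followed. The submitters' processing notes name MACS2 2.1.2, BWA 0.7.2 and SAMtools 0.1.18, and the build hg19 (GRCh37). Options, threshold, duplicate handling and any control library: not given in the sources used here. Per the narrowPeak format, the deposited fold is the peak caller's ratio of fragments to local background, with 1 added to each. The deposited −log10 p and −log10 q were made by the authors' peak caller. The deposited score equals −log10 q times 10. These are the authors' values; p and fold were not compared between lists.

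Fragments at each summit and the local background were solved from fold and −log10 p, assuming MACS2's formulas; at 100% of peaks a whole number gave the deposited −log10 p to within 0.001, and a second one did so at 3 vehicle and 7 GSK2879552 peaks. Backgrounds above the floor were whole multiples of 1 read per 10 kb, taking the shortest peak (175 bp in vehicle, 168 bp in GSK2879552) as the fragment length. Floors gave 6.17 and 6.44 reads per kb, a ratio of 1.04. Ratios of fragments were divided by the ratio of floors (1.00) and ratios of reads by that of reads per kb. Recovery and pairing were run on simulated peaks made with the same formulas, which does not test whether those formulas apply. Overlap meant at least 1 bp (same counts with bedtools 2.31.1), and pairs were mutual best partners. Intervals (Poisson, Clopper-Pearson and conditional binomial, 95%, scipy 1.17.1) cover counting error only, since 1 list per group holds no spread between cultures. Whether PCR copies were removed is not given, and any left would be counted as fragments.

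Every pair, every peak of 1 list alone and the neighbours outside each end were named by rule. The locus and lists were chosen with earlier results of these data known; comparisons with sites of like strength, the reads around summits and the promoter search were added after the values were seen. Alternatives changed thresholds, overlap rules, window ends, pairing and scaling. With no hg19 annotation, the planned count of peaks at other genes of the PTHLH pathway and the search of peak sequences were not made.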

Additional observations from a re-analysis of the deposited data

How the results depend on the processing

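The ratio of peak numbers was below 1 under each of 6 alternatives (0.50 to 0.80). The ratio of summed fragments was below 1 under each of 8 (0.779 to 0.854). Over the whole lists and all pairs these ratios were 0.697 and 0.798, so values below 1 are not particular to the locus. With both lists held to a −log10 q of at least 10, 3 vehicle and 2 GSK2879552 peaks were left, 100% of the latter overlapped, and 18.2% (vehicle) and 18.9% (GSK2879552) of windows held as many peaks. A fold of at least 5 left 3 GSK2879552 peaks. Shortening the locus by 50 kb at either end left 5 vehicle peaks, and lengthening it gave 8 GSK2879552 peaks and a median log2 ratio of -0.67 over 7 pairs, which include the 3 sites named beyond the lower end. Fewer peaks under stricter limits and in a shorter stretch follow from those settings; otherwise the cause was not tested. Over all pairs the median log2 ratio was -0.32, and at the locus it was below 0 under all 8 alternatives run for it. One of these, scaling by reads per kb (-0.27), was chosen after seeing the data. When 50% of both peaks had to be covered, the overlapped share was 37.5% (vehicle) and 60.0% (GSK2879552); a minimum −log10 q of 5 made it 33.3% and 50.0%, and a minimum fold of 5 made it 33.3% and 66.7%. No lane could be left out, because both lanes went into a list. No paired analysis was possible because there is 1 list for either group. Alternatives for peak sequences and pathway genes were not run. With 8 and 5 peaks and 11 to 66 fragments at all but the strongest summit, counting error limits each comparison.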
